A study of Saccharomyces cerevisiae with 4 samples.

Results

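The enzymes that build amino acids in Saccharomyces cerevisiae (budding yeast) were followed through a map of 5-formylcytidine (f5C) in messenger RNA. The set holds 53 genes of 10 pathways, chosen by function and matched to the deposited site list by systematic gene name: histidine, aromatic, branched-chain, lysine, arginine, glutamate and glutamine, proline, asparagine, serine, and homoserine and threonine synthesis. It also includes GDH2, a glutamate dehydrogenase that breaks glutamate down. Of the 1892 listed sites, 56 lay in 30 of these 53 genes, on 13 of the 16 nuclear chromosomes that hold a listed site. All 56 lay on the coding strand of their gene.

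The study treated fragmented mRNA with pyridine borane, which reduces f5C to dihydrouridine. Reverse transcriptase reads dihydrouridine as U, so a modified cytidine yields mutated reads after treatment, while untreated RNA gives the unchanged base. The treated group comprised 2 libraries from RNA held in 0.9 M pyridine borane at pH 5.2 and 37 °C for 24 h, and the input group comprised 2 libraries from RNA that was not treated. All 4 came from poly(A)+ RNA of a yeast clone grown overnight in rich medium (YPD) at 28 °C. The strain is not named in the labels. The labels do not say whether replicates 1 and 2 are separate cultures, so SDs cover only the spread between these libraries, which may be technical. The p-values come from tests on read counts and cover counting error, not the spread between libraries.

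Yeast makes all of the standard amino acids itself, in branched pathways that often start with an enzyme inhibited by its own end product. When amino acids run short, the transcription factor Gcn4 raises the transcripts of many of these pathways together, a response called general amino acid control. Rich medium supplies amino acids from peptone and yeast extract. f5C is an oxidised form of 5-methylcytidine and is best known from the wobble position of mitochondrial methionine tRNA.

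The site list was drawn up by the authors on these same libraries. Over all listed sites the lowest treated value was 7.5% mutated reads, the lowest number of treated mutated reads was 10, and the highest deposited q-value in the authors' deposited table was 0.00993. A gene without a listed site may thus lack f5C, lie below these values or be too thinly covered. No coverage was available for such genes, so fewer modified molecules and less RNA cannot be told apart here. Genome positions below are those of the site list, for which the sources used here name no genome build, and the sites of a transcript are numbered from its 5′ end.

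Of the 53 genes, 30 (56.6%) had a listed site, against 20.8% of the 6002 nuclear protein-coding genes in the RefSeq annotation. The members were picked with earlier results of these data known, which bears on this share: of 15 further enzymes of the same pathways, 3 had a site. Over members and further enzymes together, 33 of 68 genes (48.5%) had one. Counted by RefSeq gene length, the 53 members held 0.625 sites per 1000 nt and all nuclear protein-coding genes 0.213. These values were not adjusted for expression.

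The pathways differed in how many of their transcripts were listed. All 7 aromatic genes had a site, with 16 sites between them, as did 4 of 5 histidine genes with 9 sites and 4 of 5 homoserine and threonine genes with 6 sites. In branched-chain synthesis the count was 6 of 10 genes with 11 sites, and among glutamate and glutamine enzymes 3 of 5 with 6 sites. Lysine synthesis had 2 of 7 genes with 3 sites and arginine synthesis 2 of 6 with 3 sites. Asparagine synthesis had 1 of 2 genes and serine synthesis 1 of 4, with 1 site each, and neither of the proline genes PRO1 and PRO2 was listed. The choice of members moved the aromatic share most: of 7 further aromatic genes, which include the chorismate mutase gene ARO7 and the tryptophan genes TRP1 and TRP4, 1 had a site, so the wider count was 8 of 14. Per 1000 nt, site density ran from 1.33 in histidine and 1.21 in aromatic synthesis to 0.276 in arginine, 0.241 in lysine and 0.203 in serine synthesis. These densities cover the chosen members only and leave out the further genes, so they depend on that choice too.

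**Figure D1:**
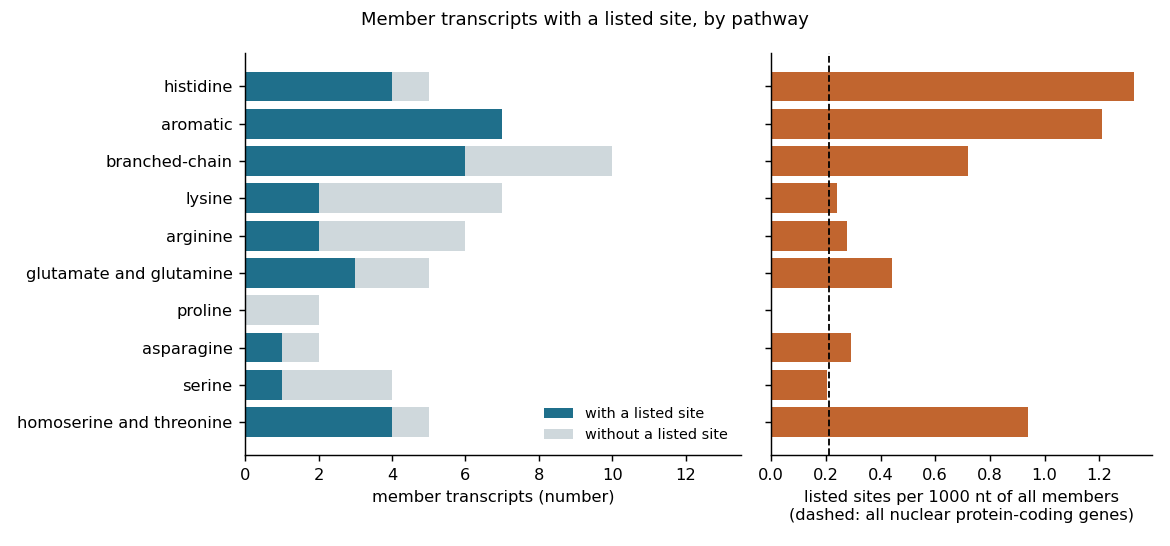
The left panel shows, for each of the 10 pathways, the number of member transcripts with and without a listed site. Further genes of the pathways are left out of both panels. The right panel shows listed sites per 1000 nt over all members of the pathway, with a dashed line at 0.213 for all nuclear protein-coding genes; histidine, aromatic, homoserine and threonine, and branched-chain synthesis lie farthest above it, and serine (0.203) and proline (no site) lie below it.

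Members with a site carried 1.87 sites per transcript, against 1.51 over all genes with a site. A single site was found in 11 members, 2 sites in 13, 3 sites in 5 and 4 sites in HIS4. Thus 19 of 30 listed members (63.3%) had at least 2 sites, where the share over all 1253 genes with a site was 33.9%. Per 1000 nt of the listed genes, the values were 1.05 sites in members and 0.897 in all nuclear protein-coding genes with a site. The members were picked with earlier results known, and of the 15 further enzymes the 3 with a site had 1 site each. These counts were not adjusted for coverage, which at the median was higher at member sites than over the list.

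At every member site the mutated fraction was far higher in treated than in input RNA. All 56 sites were higher in both replicates, with mean differences between 7.58 and 15.2 percentage points. By Fisher exact test on reads summed over replicates, with Benjamini-Hochberg adjustment over all 1892 sites, 56 of 56 member sites passed, the largest adjusted p being 9.80e-11. The authors' selection fixes this outcome, since 100% of listed sites passed, and nothing is read from it. In input RNA 38 of the 56 sites (67.9%) had no mutated read in either library, against 64.1% of all listed sites. Summed over member sites, 0.0468% of the reads of input replicate 1 and 0.0243% of those of input replicate 2 were mutated.

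The member sites had a median level, the mean of the treated fractions of both replicates, of 9.03%, with quartiles of 8.54% and 9.90%. Over all listed sites the median was 9.0%, with quartiles of 8.35% and 10.1%. In treated replicates 1 and 2 taken alone, the members' medians were 8.70% and 9.18%, against 8.75% and 9.09% over all sites. The members' median was thus slightly below that of all sites in replicate 1 and slightly above it in replicate 2. Of the 56 sites, 13 (23.2%) had a level of at least 10%, where 27.5% of all listed sites did. Thus many of these transcripts were listed, and at levels like those of the rest of the list. The likeness of levels says little, since the list holds no treated value under 7.5% and its quartiles lie close together.

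**Figure D2:**
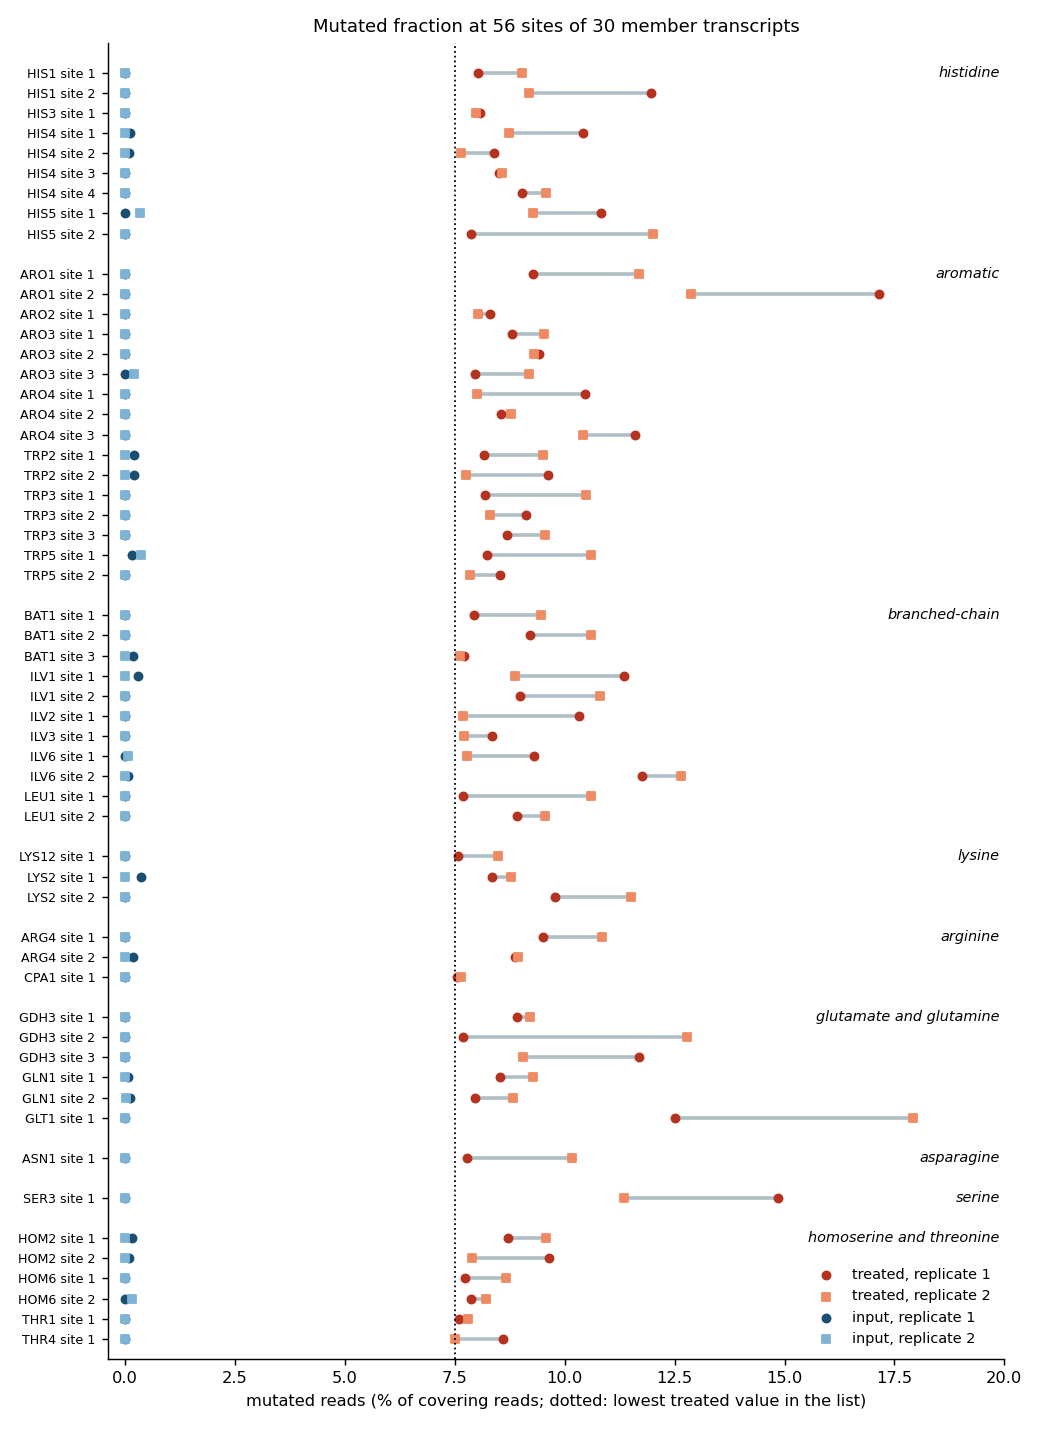
The percentage of mutated reads is shown for each of the 56 member sites in the 2 treated and the 2 input libraries, grouped by pathway, with grey bars joining the treated replicates. Treated values lie between 7.51% and 17.9% and input values between 0% and 0.369%, so the groups do not overlap at any site. This holds for the whole list, where the lowest treated value is 7.5% and the highest input value 3.23%. A square at 0 can cover a circle at 0.

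Member sites with more coverage had lower levels (Spearman's rho = -0.54 over 56 sites of 4 shared libraries, given as a description). The rho over all 1892 sites was -0.50. No listed site had fewer than 10 treated mutated reads, so the most thinly covered sites can be listed only at levels above the lowest treated value of 7.5%. Below 250 reads of mean treated coverage the lowest level of any listed site was 7.95%, against 7.52% from 250 to 500 reads. How far the minimum of mutated reads shapes the trend was not tested. Within classes of mean treated coverage the members and the other sites had like medians. Below 250 reads, 10 member sites had a median level of 10.5% and 422 other sites one of 10.7%. From 250 to 500 reads, 14 member sites stood at 9.18% and 663 others at 8.94%, and from 500 to 1000 reads, 22 member sites stood at 8.77% and 337 others at 8.64%. At 1000 reads or more, 10 member sites had a median of 8.56% and 414 others one of 8.52%. Where the members differed was in the spread over these classes: 39.3% of member sites and 18.4% of the others had 500 to 1000 reads. The treated libraries covered the median member site with 651.5 reads (replicate 1) and 456.5 reads (replicate 2), and the input libraries with 543 and 450.5 reads. Over all listed sites the medians were 469 and 327.5 reads in the treated libraries and 417.5 and 338 reads in the input libraries. No member site had fewer than 101 reads in a library.

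**Figure D3:**
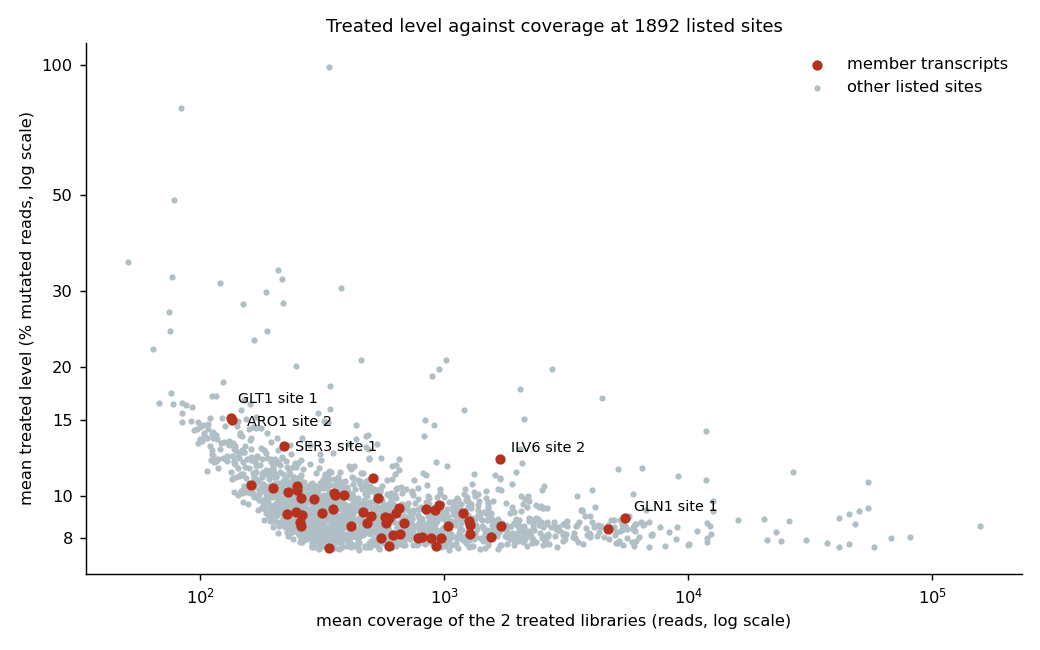
Mean treated level is plotted against mean treated coverage, both on log scales, for the member sites (red) and the other listed sites (grey). The shallow GLT1, ARO1 and SER3 sites have high levels, as many shallow sites of the list do, while ILV6 site 2 stands above most sites of its coverage.

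The branched-chain pathway held the member site that stood out at depth. It makes isoleucine, valine and leucine, mostly in mitochondria, and its common first enzyme is acetolactate synthase, with ILV2 encoding the catalytic and ILV6 the regulatory subunit. At ILV6 site 2 (YCL009C, chromosome III, position 105252, minus strand) treated replicate 1 had 237 of 2014 reads mutated (11.8%) and treated replicate 2 had 175 of 1383 (12.7%), against 1 of 1777 and 0 of 1411 reads in input. The level was 12.2% ± 0.627 (SD, n = 2), and the Wilson 95% interval of the summed reads was 11.1% to 13.3%. Across 337 listed positions that all 4 libraries covered with 1000 reads or more it had rank 7, and the quartiles of these positions were 8.10% and 8.96%. The other 6 member sites of this depth had ranks between 92 and 267.

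The 5′ site of the same transcript was lower. ILV6 site 1 (position 105456) had 183 of 1966 reads (9.31%) and 112 of 1442 reads (7.77%) mutated in treated replicates 1 and 2, against 0 of 1765 and 1 of 1449 reads in input. Site 1 minus site 2 was -2.46 points in replicate 1 and -4.89 points in replicate 2, a mean of -3.67 ± 1.72 (SD, n = 2), and the libraries' values of the 2 sites did not overlap. This comparison was added once the data had been seen. Over all 636 neighbouring pairs of listed sites in a gene, the Fisher exact test on summed treated reads gave this pair an adjusted p of 5.66e-05. In replicate 1 alone the adjusted exact p was 0.175 and in replicate 2 alone 0.000568, so only replicate 2 passed by itself.

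Few neighbouring pairs of the set passed this test. Of 26 neighbouring pairs in members, ILV6 was the 1 that passed, and 8.49% of all 636 pairs did. At an unadjusted p of 0.05, 2 member pairs passed, ILV6 and ARO1, where the share over all pairs was 15.6%. Sites 1 and 2 of ARO1 differed by -4.54 ± 4.74 points (SD, n = 2), less than the spread between replicates (adjusted exact p = 0.287). The difference had the same sign in both treated replicates in 13 of 26 member pairs (50%), against 60.8% of all pairs. Pairs a few nucleotides apart are read by largely the same molecules, which the test counts as separate. Spacings in members ran from 1 nt in TRP5 to 1820 nt in LYS2, with 7 of 26 (26.9%) at 100 nt or less, against 25.0% of all pairs.

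**Figure D4:**
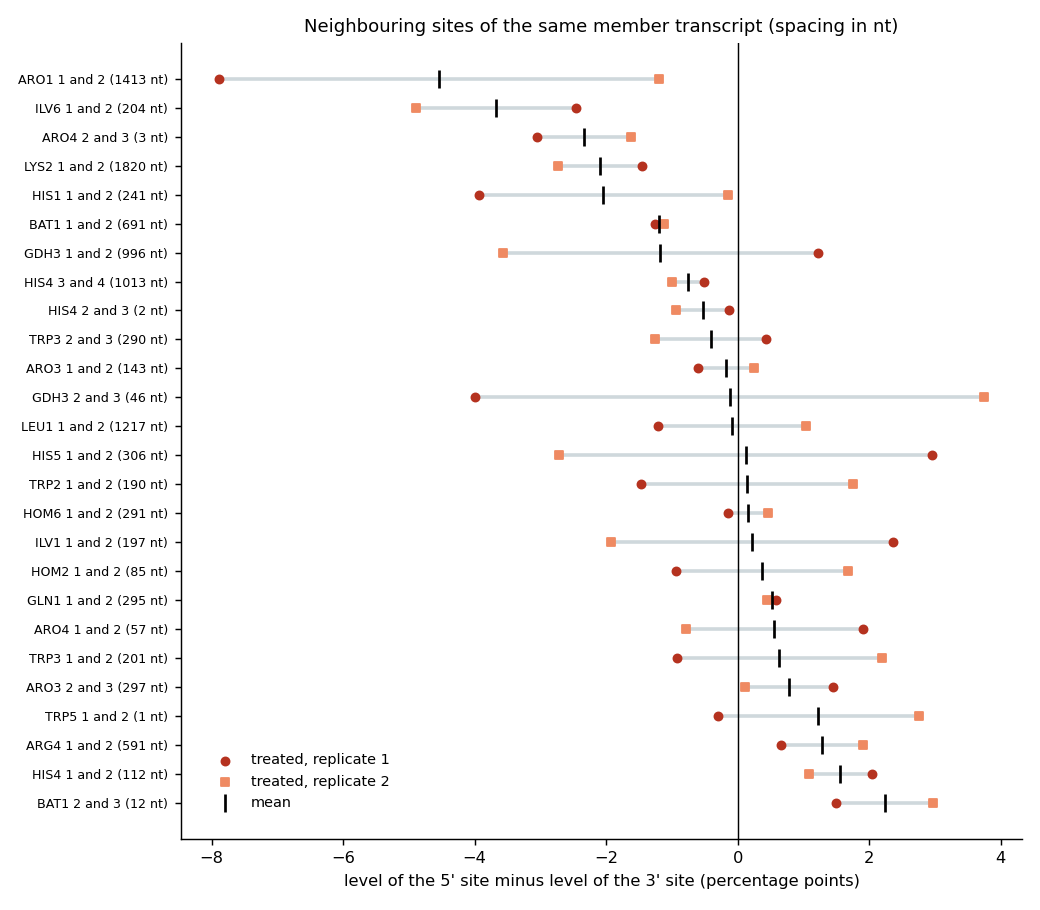
For each of the 26 neighbouring pairs of sites in a member transcript, the level of the 5′ site minus that of the 3′ site is shown in treated replicates 1 and 2, with a tick at the mean and the spacing in nt. ARO1 and ILV6 have the lowest means, and the ARO1 replicates lie far apart; 13 of the pairs have both replicates on the same side of 0.

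Other branched-chain transcripts had levels between 7.66% and 10.1%. ILV1, the threonine deaminase that opens isoleucine synthesis, had 10.1% ± 1.75 at site 1 and 9.89% ± 1.29 at site 2 (SD, n = 2 each). ILV2 had 9.0% ± 1.85 at its site and ILV3, dihydroxyacid dehydratase, had 8.03% ± 0.444. LEU1, isopropylmalate isomerase, had 9.14% ± 2.05 and 9.23% ± 0.455 at sites 1 and 2. The ranges of mean ± SD overlapped among these sites, except that ILV3 lay below ILV1 site 2 and LEU1 site 2. Acetohydroxyacid reductoisomerase (ILV5), isopropylmalate dehydrogenase (LEU2), isopropylmalate synthase (LEU4) and the cytosolic aminotransferase BAT2 had no listed site.

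BAT1, the mitochondrial branched-chain aminotransferase, had 3 sites and its paralog BAT2 none. At BAT1 site 1 (YHR208W, chromosome VIII, position 517862, plus strand) treated replicates 1 and 2 had 7.94% and 9.46% mutated reads, at 806 and 560 reads. Site 2 (position 518553) had 9.20% and 10.6%, at 641 and 425 reads, and site 3 (position 518565) had 7.70% and 7.61%, at 701 and 486 reads. Inputs had 1 mutated read, at site 3 in input replicate 1 among 603 reads, and none elsewhere. Site 3, 12 nt downstream of site 2, was lower in both replicates, with site 2 minus site 3 at 1.5 and 2.98 points, but the pair did not pass (adjusted exact p = 0.467). With 7.66% ± 0.0637 (SD, n = 2), site 3 was the second lowest of the member sites.

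Histidine synthesis runs from ATP phosphoribosyltransferase (HIS1) to histidinol dehydrogenase, the last activity of the multifunctional HIS4 protein. HIS4 was the member with the most sites. At HIS4 site 1 (YCL030C, chromosome III, position 67373, minus strand) treated replicates 1 and 2 had 10.4% and 8.73% mutated reads, at 1094 and 802 reads, against 0.103% and 0% in input. Site 2 (position 67261) had 8.38% and 7.64% in treated RNA, against 0.0929% and 0% in input. At site 3 (position 67259) the treated values were 8.51% and 8.58%, and at site 4 (position 66246) they were 9.02% and 9.58%, each against 0 mutated reads in input. The 4 sites lay within 1.56 points of each other in mean level, and none of the 3 neighbouring pairs passed, the lowest adjusted exact p being 0.474. Sites 2 and 3, 2 nt apart, had 8.01% ± 0.524 and 8.55% ± 0.0455 (SD, n = 2 each).

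The other listed histidine genes had 1 or 2 sites. HIS1 site 2 (YER055C, chromosome V, position 264915, minus strand) had 36 of 301 reads (12.0%) and 18 of 196 reads (9.18%) mutated in treated replicates 1 and 2, against 0 of 287 and 0 of 254 in input, and HIS1 site 1 had a level of 8.53% ± 0.715 (SD, n = 2). HIS5, histidinol-phosphate aminotransferase, had 10.1% ± 1.08 at site 1 and 9.93% ± 2.93 at site 2, where treated replicates 1 and 2 gave 7.86% and 12.0%. HIS3, imidazoleglycerol-phosphate dehydratase and a common selection marker, had 1 site with 8.06% and 7.98%. HIS7 was not listed.

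Aromatic synthesis begins with a pair of isoenzymes, ARO3 and ARO4, that make the first sugar phosphate of the shikimate pathway and are inhibited by phenylalanine and tyrosine. Both had 3 sites. At ARO3 sites 1, 2 and 3 (YDR035W, chromosome IV, positions 521884, 522027 and 522324, plus strand) treated replicate 1 had 8.80%, 9.41% and 7.96% mutated reads and treated replicate 2 had 9.53%, 9.29% and 9.18%. In input, ARO3 had 2 mutated reads, both at site 3 in replicate 2 (0.195% of 1026 reads). The ARO3 levels of 9.17%, 9.35% and 8.57% had SDs of 0.516, 0.0853 and 0.867 points (n = 2 each), and no neighbouring pair passed.

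ARO4 (YBR249C, chromosome II, minus strand) had its sites within 60 nt. Site 1 (position 717322) had 10.5% and 8.0% mutated reads in treated replicates 1 and 2, at 555 and 375 reads. Site 2 (position 717265) had 8.55% and 8.79%, at 573 and 387 reads. Site 3 (position 717262) had 11.6% and 10.4%, at 603 and 413 reads, and all 3 sites had 0 mutated reads in both inputs. Site 2 minus site 3, which lies 3 nt downstream, was -3.06 points in replicate 1 and -1.63 points in replicate 2, although the pair did not pass (adjusted exact p = 0.409). The Wilson 95% interval of site 3, 9.33% to 13.2%, lay above the median of the whole list.

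ARO1 encodes the large multifunctional protein of the middle of the shikimate pathway. Its transcript had thin coverage and high levels. At ARO1 site 2 (YDR127W, chromosome IV, position 708094, plus strand) treated replicate 1 had 29 of 169 reads mutated (17.2%) and treated replicate 2 had 13 of 101 (12.9%), against 0 of 113 and 0 of 121 reads in input. A count of 0 at this input depth still allows 1.28%. Site 1 (position 706681) had 24 of 259 reads (9.27%) and 16 of 137 reads (11.7%) mutated in treated RNA, against 0 of 189 and 0 of 146 in input. Site 1 minus site 2 was -7.89 points in replicate 1 and -1.19 points in replicate 2, the pair that did not pass above. Below 250 reads no listed site of any gene had a level under 7.95%, and 10.5% was the members' median.

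From chorismate, made by ARO2, the tryptophan branch runs through anthranilate synthase (TRP2 with TRP3) to tryptophan synthase (TRP5). ARO2 had 1 site with a level of 8.16% ± 0.181 (SD, n = 2), and TRP2 had 8.83% ± 0.953 and 8.69% ± 1.32 at sites 1 and 2. TRP3 sites 1, 2 and 3 (YKL211C, chromosome XI, positions 37710, 37509 and 37219, minus strand) had 8.19%, 9.12% and 8.70% in treated replicate 1 and 10.5%, 8.29% and 9.55% in treated replicate 2, with 0 mutated reads in input. The order of the TRP3 sites thus differed between replicates, and the levels of 9.34%, 8.71% and 9.12% are not separated by their SDs of 1.62, 0.585 and 0.603 points (n = 2 each).

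TRP5 had its 2 sites on adjacent nucleotides. Site 1 (YGL026C, chromosome VII, position 448238, minus strand) had 65 of 790 reads (8.23%) and 55 of 519 reads (10.6%) mutated in treated replicates 1 and 2. In input it had 1 of 673 reads (0.149%) and 2 of 542 reads (0.369%) mutated, and the value of input replicate 2 was the highest of any member site in either input library. Site 2 (position 448237) had 8.53% and 7.84% in treated RNA, against 0 of 681 and 0 of 545 reads in input. The table does not say whether the same reads were mutated at both positions.

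Among glutamate and glutamine enzymes, which bring ammonium into organic form, GLN1, glutamine synthetase, was the most deeply covered member. Its site 1 (YPR035W, chromosome XVI, position 642676, plus strand) had 552 of 6472 reads (8.53%) and 420 of 4527 reads (9.28%) mutated in treated replicates 1 and 2, against 3 of 5208 and 0 of 4463 reads in input. Site 2 (position 642971) had 443 of 5575 reads (7.95%) and 334 of 3783 reads (8.83%), against 5 of 4822 and 1 of 3991 in input. Site 2 was lower in both replicates, by 0.583 and 0.449 points, and the pair did not pass even at this depth (adjusted exact p = 0.699). The Wilson 95% interval of site 2, 7.76% to 8.88%, lay below the median of the whole list, as did that of THR1. Among the 337 listed positions with 1000 reads or more in every library, GLN1 site 2 had rank 187, and their median was 8.49%.

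GLT1, the NADH-dependent glutamate synthase and the longest member, had the highest level of the set from its single site. At that site (YDL171C, chromosome IV, position 155374, minus strand) treated replicate 1 had 20 of 160 reads mutated (12.5%) and treated replicate 2 had 19 of 106 (17.9%), against 0 of 155 and 0 of 117 reads in input. The level of 15.2% ± 3.84 (SD, n = 2) had a Wilson 95% interval of 10.9% to 19.4%. It ranked 44 among all 1892 sites, with ARO1 site 2 at rank 50, SER3 at 110 and ILV6 site 2 at 155. The intervals of these 4 sites overlap, so their order is not settled.

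GDH1 and GDH3 encode paralogous NADP-dependent glutamate dehydrogenases. GDH3 had 3 sites, while GDH1 and the degradative GDH2 had none. At GDH3 site 1 (YAL062W, chromosome I, position 31867, plus strand) treated replicates 1 and 2 had 8.91% and 9.22% mutated reads. Site 2 (position 32863) had 7.69% and 12.8%, and site 3 (position 32909) had 11.7% and 9.04%, all against 0 mutated reads in input. The order of sites 2 and 3 thus turned between replicates. Site 2 had the lowest exact p of the members for a difference between treated replicates, 0.100 unadjusted. The sources used here do not say how reads shared by near-identical genes were assigned, which touches GDH1 and GDH3, LYS20 and LYS21, SER3 and SER33, and ASN1 and ASN2.

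In the serine and asparagine pathways 1 gene of a paralog pair was listed. SER3, a phosphoglycerate dehydrogenase at the start of serine synthesis, had 1 site (YER081W, chromosome V, position 323973, plus strand) with 38 of 256 reads (14.8%) and 21 of 185 reads (11.4%) mutated in treated replicates 1 and 2, against 0 of 231 and 0 of 183 in input. Its Wilson 95% interval was 10.5% to 16.9%, and its paralog SER33 had no listed site, nor had SER1 and SER2 of the following steps. ASN1, an asparagine synthetase, had 1 site (YPR145W, chromosome XVI, position 822956, plus strand) with 54 of 695 reads (7.77%) and 45 of 443 reads (10.2%) in treated RNA, against 0 of 665 and 0 of 509 in input. ASN2 had none. In lysine synthesis neither of the homocitrate synthase paralogs LYS20 and LYS21 was listed.

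Lysine and arginine synthesis had few listed transcripts. LYS2, the alpha-aminoadipate reductase, had 26 of 312 reads (8.33%) and 18 of 205 reads (8.78%) mutated at site 1 in treated replicates 1 and 2. In input LYS2 had 1 of 273 reads (0.366%) and 0 of 234 reads mutated at site 1. At its site 2 (YBR115C, chromosome II, position 471413, minus strand) treated replicate 1 had 18 of 184 reads mutated (9.78%) and treated replicate 2 had 16 of 139 (11.5%), against 0 of 166 and 0 of 133 in input. LYS12, homoisocitrate dehydrogenase, had 1 site with 8.02% ± 0.647 (SD, n = 2), and LYS1, LYS4 and LYS9 had none. ARG4, argininosuccinate lyase, had 10.2% ± 0.944 at site 1 and 8.90% ± 0.0533 at site 2 (SD, n = 2 each). CPA1, of arginine-specific carbamoyl phosphate synthesis, had the lowest level of the set. At its site (YOR303W, chromosome XV, position 883115, plus strand) treated replicate 1 had 32 of 424 reads mutated (7.55%) and treated replicate 2 had 19 of 249 (7.63%), against 0 of 335 and 0 of 296 in input, just above the lowest treated value of the list. ARG1, ARG3 and ARG5,6 had no listed site.

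Homoserine and threonine synthesis starts from aspartate and had levels between 7.69% and 9.14%. HOM2, aspartic semialdehyde dehydrogenase, had 9.14% ± 0.616 and 8.77% ± 1.24 at sites 1 and 2, and HOM6, homoserine dehydrogenase, had 8.19% ± 0.662 and 8.04% ± 0.236 (SD, n = 2 each). THR4, threonine synthase, had 8.05% ± 0.763. THR1, homoserine kinase, had 80 of 1055 reads (7.58%) and 62 of 795 reads (7.80%) mutated at its site (YHR025W, chromosome VIII, position 160466, plus strand) in treated replicates 1 and 2, against 0 of 981 and 0 of 871 in input. None of these 6 sites reached 10%, and their median coverage, 1420 reads in treated replicate 1 and 990 in treated replicate 2, was above that of the member sites as a whole. HOM3, the aspartate kinase, had no listed site.

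Between the treated replicates the median absolute difference at member sites was 1.14 points, against 0.870 over all listed sites. Spearman's rho between their levels was 0.249 over the 56 member sites and 0.465 over all 1892, given as a description of sites that share libraries. Treated replicate 2 was higher than replicate 1 at 34 of 56 sites (60.7%), against 58.2% of all. By Fisher exact test between the treated replicates 0 member sites differed after adjustment over all sites, where 0% of the list did, and 0 differed at an unadjusted p of 0.05, where 2.75% did. Between the input replicates 0 member sites differed either way, against 0% adjusted and 0.159% unadjusted over the list. The authors' selection in both treated replicates can remove sites that disagree strongly, which bears on the treated counts and on rho. The largest gap between treated replicates was at GLT1, 5.42 points. With these depths, 49 of the 56 Wilson intervals included the median of the whole list, 5 lay above it (GLT1, SER3, ARO1 site 2, ILV6 site 2 and ARO4 site 3) and 2 below it. These intervals cover counting error only, and the median of the whole list takes no account of depth. No such count is given for the rest of the list, so these numbers do not set the members apart. GLT1, SER3 and ARO1 site 2 had a mean treated coverage below 250 reads, where the other listed sites had a median of 10.7%.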

How the data were processed

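The deposited table gives, per the file headers, counts of covering and of mutated reads for 4 libraries at 1892 positions, with a deposited fraction of mutated among covering reads, and for each replicate a deposited fold, a ratio of treated over input, a p-value and a q-value from the authors. Per the submitters' processing notes cutadapt and STAR were used; the sources used here name no versions, genome build, site caller or settings. Library depth is unknown, since only listed sites are covered; coverage at member sites was 101 to 6472 reads.

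Sample titles gave the groups and the replicate numbers. The members and gene lists were chosen with earlier results of these data known. Symbols and gene lengths came from RefSeq (assembly R64), which held all 53 members. Each site was tested with two-sided Fisher exact tests on read counts, with Benjamini-Hochberg adjustment over all sites at 0.05 and at least 10 reads per group. Neighbouring sites of a gene were tested likewise over 636 pairs, a comparison added after seeing the data. Wilson intervals are at 95%, and the upper limit for a count of 0 is 3 reads divided by the summed coverage. Every member with a site is named, and 1 member without a site is not reported by name here. Values per library are given by a fixed rule: members with 3 or more sites, the 10 highest and 3 lowest levels, the 3 deepest sites, the highest input and paralog pairs. Those of HIS3, HIS5 site 2 and LYS2 site 1 were added after their values were seen. Those of TRP5 site 2 and of the further genes GCN4, PRO3, ARO9 and HIS6 also lie outside the rule. The tests were tried on simulated data. Alternatives were a replicate block, either replicate left out, coverage and level minimums, merged positions and summed reads. Scipy 1.17.1 and statsmodels 0.14.6 ran the tests under Python 3.11.15, with pandas 2.3.3 and numpy 2.4.6 for the tables.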

Additional observations from a re-analysis of the deposited data

How the results depend on the processing

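All 56 member sites kept a higher treated value and an adjusted p below the threshold under the replicate block (Cochran-Mantel-Haenszel test), with either replicate left out, and with a coverage minimum of 100 reads or none; the authors' selection in both replicates fixes this, so it says nothing about stability. The labels do not say that a replicate number marks a shared culture. Libraries of one number deviated together at r = -0.00502 for coverage and r = 0.642 for the mutated fraction over 206 sites, or 0.120 without the RPS25B site, and the block changed no call. The count of neighbouring member pairs that differ was 1 with the block and among pairs at least 100 nt apart, and 0 to 1 with a replicate left out: without replicate 2 it was 0, and the cause was not tested. The number of members with a site was 30, with 4 left by a minimum of 1000 reads in each library and 11 by a minimum level of 10%, as such limits must lower it, and 27 without near-identical paralogs. Sites per transcript went from 1.87 to 1.77 with positions within 10 nt counted as 1 and to 1.63 within 100 nt (1.51, 1.46 and 1.38 over all genes with a site), and were 1.05 per 1000 nt. The median level of 9.03% was 8.70% to 9.18% with a replicate left out, 9.0% with reads summed, 8.98% with 1 value per gene, and 8.54% over the 7 member sites that keep 1000 reads in each library, against 8.49% over all 337 such sites. Coverage limits single sites most at GLT1 and ARO1, whose Wilson intervals are 10.9% to 19.4% and, at ARO1 site 2, 11.7% to 20.4%.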

Other observations

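Among the 19 further genes counted beside the members, 4 had a listed site, 1 each. GCN4, the transcription factor of general amino acid control, had 198 of 2482 reads (7.98%) and 142 of 1793 reads (7.92%) mutated in treated replicates 1 and 2, against 0 of 2126 and 2 of 1692 reads in input (YEL009C, chromosome V, position 139715, minus strand). Its level of 7.95% ± 0.0408 (SD, n = 2) is among the lowest of the list, at rank 1724 of 1892. PRO3, which completes proline synthesis, had 7.57% and 8.79%, so this pathway was listed through its last enzyme only among the genes counted here. ARO9, an aromatic aminotransferase, had 8.33% and 7.56%, and HIS6 of histidine synthesis had 9.68% and 10.8% at 155 and 120 treated reads. The pathway regulators LEU3, LYS14 and ARO80 had no listed site.

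The spacing of neighbouring sites within a member transcript was a multiple of 3 nt in 11 of 26 pairs (42.3%), against 33.8% of the 636 pairs over all genes. Remainders of 1 and 2 nt were found in 8 and 7 member pairs, against 36.3% and 29.9% of all pairs. The annotated length of all 53 members is a multiple of 3. A spacing divisible by 3 means the same position in the codon only where both sites lie in the coding sequence, which was not determined. No test was made of these shares, which were looked for after seeing the data.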
